A study of Mus musculus with 2 samples.

Results

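The Sfmbt2 microRNA cluster is a dense run of related microRNA genes inside an intron of Sfmbt2, read here in the intestine of mouse embryos. Members are the table rows whose Ensembl identifier belongs, in the GENCODE annotation of GRCm38, to a microRNA gene on the plus strand of chromosome 2 between 10370000 and 10600000 with a symbol starting Mir297, Mir466, Mir467 or Mir669. The rule found 59 of the 1973 gene rows, and no measured value entered it. A further 12 annotated genes meet the rule but have no row in the tables and were not analysed here.

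Small RNA with inserts under 30 bases was sequenced from embryonic intestine of the B6NCrl strain at 14.5 days, in 2 libraries of 1 group that the labels number as biological replicates. The labels call each sample 1 pup's intestine but list its sex as a male and female pool. Replicate 1 was collected on day 17 and replicate 2 on day 15 of the same month. No condition was compared, and the design allows no test between conditions.

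Values are read counts on the gene's own strand, or CPM, which are those counts scaled to a total of 1000000 over all gene rows. The totals were 15090126 in replicate 1 and 3903472 in replicate 2. With 3 counts as the limit, a count of 0 leaves room for 0.199 CPM in the deeper library and 0.769 CPM in the other. Intervals cover counting error only, because reads without molecular identifiers are not independent molecules. The tissue label was checked on microRNAs known from gut: the smooth muscle pair Mir143 and Mir145a held 16.1 ± 1.55% of counts (SD, n = 2) and the 4 intestinal epithelial genes 1.02 ± 0.168%. All 6 had at least 10 counts in both libraries.

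A microRNA gene is transcribed as a precursor that folds into a hairpin, from which the short mature strand is cut. The mature strand guides repression of messenger RNAs, chiefly through pairing of its seed, bases 2 to 8. Sfmbt2 encodes a Polycomb-related protein, is imprinted in mouse with expression from the paternal copy in extraembryonic tissue, and is known for its role in trophoblast. Its intronic cluster is found in rodents, where the microRNA genes multiplied as tandem copies. It is known mainly from placenta and embryonic stem cells.

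The families carry stretches of alternating U and G or A and C. The longest such run in a member hairpin had a median of 9 bases (7 to 15). Mature sequences were at hand only for relatives outside the cluster. None of the 59 members matched an entry of the RefSeq sequence table (GRCm38.p6), whereas 9 of the 10 genes of the same families elsewhere in the genome did. These 9 have 8 mature sequences with 8 different seeds. The 4 below are shown because they let a reader see the repeat-like letters of these families, with the seed in capitals.
miR-466k, chr3:85467396-85467418, plus strand: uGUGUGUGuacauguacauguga
miR-466i-3p, chr13:17747552-17747573, plus strand: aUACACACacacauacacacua
miR-467h, chr9:115381898-115381919, plus strand: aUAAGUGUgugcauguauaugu
miR-669n, chr3:115979905-115979924, plus strand: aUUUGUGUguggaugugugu

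Stretches of these sequences recur in the cluster's hairpins, read as annotated in GENCODE. Of the 23 bases of miR-466k, 22 in a row stand in the hairpin of Mir466o. Of the 22 bases of miR-466i-3p, 21 in a row stand in that of Mir466f-2. The longest run was 18 bases both for miR-467h, in the Mir669d hairpin, and for miR-669n, in the Mir669c hairpin. Among the sequences not shown, it was 22 bases for miR-466j, 16 for miR-467g and 14 for both miR-466q and miR-467f. All 10 family genes outside the cluster had 0 counts in both libraries, so that every count assigned to the 4 families fell on a member. Reads that align to several places are assigned to no gene. These 0 counts therefore do not show that the outside genes gave no reads. By the 20-base windows defined below, however, the outside hairpins had a median unique share of 70.0%, against 29.9% for the members. None of the outside hairpins lacked a unique window. What part shared sequence has in their 0 counts was not tested.

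The members lie between 10466663 and 10518279 on chromosome 2, a span of 51.6 kb. The first starts 96.2 kb and the last 147.6 kb after the first base of Sfmbt2 (ENSMUSG00000061186.15, 10370510 to 10595253, plus strand). In both Sfmbt2 transcripts that span them, all members fall in 1 intron of 62472 bases (10461473 to 10523944), the 10th in ENSMUST00000041105.6 and the 11th in ENSMUST00000116594.8. No member overlaps an exon of any annotated Sfmbt2 transcript. Sfmbt2 itself has no row in these tables.

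The cluster held a small share of the intestinal microRNA counts, nearly all of it in a few genes. Its members summed to 58461 counts in replicate 1 and 13983 in replicate 2. These are 0.387% of all counts (95% Wilson interval 0.384 to 0.391%) and 0.358% (0.352 to 0.364%), or 0.373 ± 0.0206% (SD, n = 2). At least 10 counts in both libraries were reached by 10 members, 16.9% of them, beside 18.4% of all gene rows. A further 16 members had some counts and 33 had none in either library, 55.9% beside 61.1% of all gene rows. In replicate 1 alone, the deeper library, 17 members had at least 10 counts.

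The miR-467 family led the cluster through 3 of its 14 genes. The family held 77.7% of the cluster's counts in replicate 1 and 76.1% in replicate 2. The miR-669 family, with 20 members, held 21.6% and 23.2%. The 20 members of the miR-466 family together held 0.578% and 0.636%, and the 5 of the miR-297 family 0.161% and 0.100%. The order of the 4 families was the same in both libraries.

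Mir467e (ENSMUSG00000076948.2; 10505721 to 10505807) was the most abundant member. It had 17690 counts in replicate 1 and 4487 in replicate 2, or 1172 and 1149 CPM, which placed it 94th and 97th among all gene rows. Mir467d (ENSMUSG00000077021.2; 10507630 to 10507714), the next miR-467 gene after it, had 15121 and 3529 counts, or 1002 and 904 CPM. Mir467c (ENSMUSG00000077049.2; 10473931 to 10474027) lies near the other end of the cluster and had 12577 and 2618 counts, or 833 and 671 CPM. Mir467e therefore exceeded Mir467d 1.17-fold in replicate 1 and 1.27-fold in replicate 2, and Mir467d exceeded Mir467c 1.20-fold and 1.35-fold. The values of the 3 genes did not overlap. After sorting by mean level, however, this held for every neighbouring pair of the members with at least 10 counts in both libraries. These are ratios of read counts of different microRNAs, whose ligation and amplification can differ.

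A pair of miR-669 genes followed. Mir669o (ENSMUSG00000077086.1; 10514300 to 10514395) had 5519 and 1478 counts, or 366 and 379 CPM. Mir669l (ENSMUSG00000076959.1; 10468971 to 10469068) had 5128 and 1264 counts, or 340 and 324 CPM. The first exceeded the second only 1.08-fold in replicate 1 and 1.17-fold in replicate 2, though their values did not overlap. Mir467c stood 2.02-fold above Mir669o on average.

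Mir669c (ENSMUSG00000076118.1; 10509296 to 10509404) had 1545 and 376 counts, or 102 and 96.3 CPM, 3.34-fold below Mir669l on average. Mir669e (ENSMUSG00000080653.1; 10467495 to 10467613) had 324 and 101 counts, or 21.5 and 25.9 CPM. Mir466n (ENSMUSG00000077991.1; 10513741 to 10513834) was the highest miR-466 gene, with 269 and 66 counts, or 17.8 and 16.9 CPM. The intervals of Mir669e and Mir466n overlapped in replicate 1 (19.3 to 23.9 CPM and 15.8 to 20.1 CPM). In replicate 2 they overlapped narrowly (21.3 to 31.4 CPM and 13.3 to 21.5 CPM). Mir669e was the higher in both libraries, and no test of their order was run.

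The lowest of the 10 were Mir669h and Mir297a-2. Mir669h (ENSMUSG00000080594.1; 10518155 to 10518279), the last member of the cluster, had 89 and 22 counts, or 5.90 and 5.64 CPM. Mir297a-2 (ENSMUSG00000076983.2; 10472254 to 10472343) had 84 and 12 counts, or 5.57 and 3.07 CPM. Their intervals overlapped in replicate 1 (4.79 to 7.26 and 4.50 to 6.89 CPM) and in replicate 2 (3.72 to 8.53 and 1.76 to 5.37 CPM). No test of their order was run. The 10 genes thus ran from about 1161 CPM to 4.32 CPM in mean level.

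**Figure D1:**
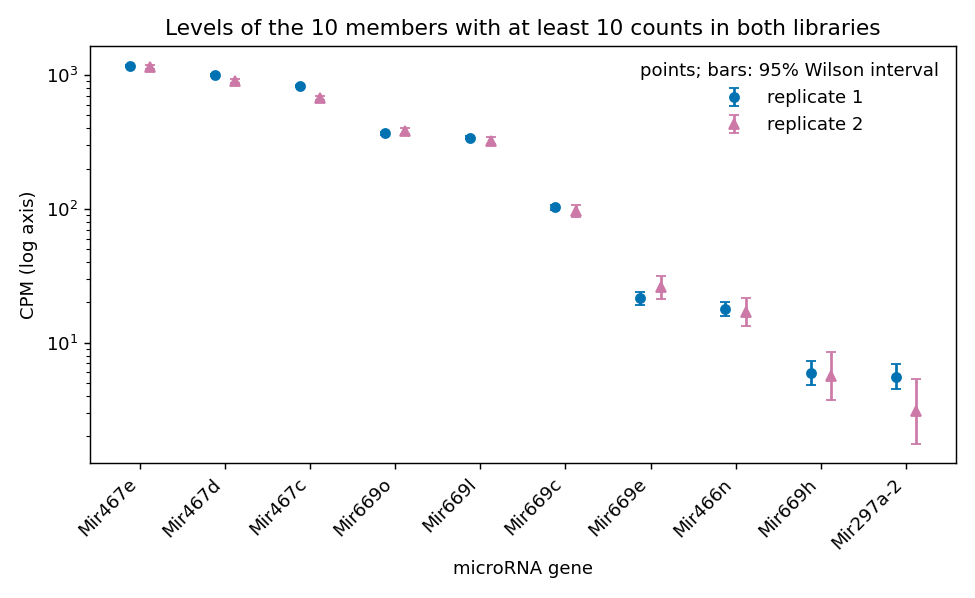
CPM on a log axis of the 10 members with at least 10 counts in both libraries, in order of mean level; circles are replicate 1, triangles replicate 2, and bars the 95% Wilson interval of each library. The 3 miR-467 genes lead, and the intervals widen toward Mir669h and Mir297a-2, which overlap.

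Members below that minimum reached at most 1.54 CPM. Mir466h had 16 and 5 counts, Mir669f 16 and 3, Mir466b-3 11 and 6, and Mir466l 10 and 3. Mir467b had 12 counts in replicate 1 and 1 in replicate 2, Mir297b 10 and 2, and Mir466 10 and 0. Mir466d had 6 and 2 counts, Mir466g 5 and 2, and Mir466o 4 and 3. The highest of these levels was that of Mir466b-3 in replicate 2. The 0 of Mir466 in replicate 2 allows up to 0.769 CPM, above its 0.663 CPM in replicate 1, so no difference was detectable at this depth.

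The 33 members without a count came from all 4 families. In the miR-467 family 9 of 14 genes were at 0, Mir467a-2 to Mir467a-10. In the miR-669 family it was 13 of 20: Mir669b, Mir669d, Mir669d-2, Mir669g, Mir669i, Mir669j, Mir669k, Mir669a-1, Mir669a-2, Mir669m-1, Mir669m-2, Mir669p-1 and Mir669p-2. In the miR-466 family 8 of 20 were at 0, Mir466f-1, Mir466c-2, Mir466b-2 and Mir466b-4 to Mir466b-8. Mir297c, Mir297a-3 and Mir297a-4 completed the list, 3 of 5 miR-297 genes. On the strand opposite the members there was no count in either library, for any of the 59.

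The counts sat at both ends of the cluster and left its middle nearly empty. This division was chosen after the values were seen, taking Mir467c and Mir467e as the borders. The 13 members up to and including Mir467c had 18139 and 4003 counts, 31.0% and 28.6% of the cluster. The 20 members from Mir467e on had 40291 and 9972 counts, 68.9% and 71.3%. The 26 members between, over 29.2 kb (10474433 to 10503645), had 31 and 8 counts. None of these 26 reached 10 counts in both libraries and 22 had none at all, against 4 of 13 before them and 7 of 20 after them.

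**Figure D2:**
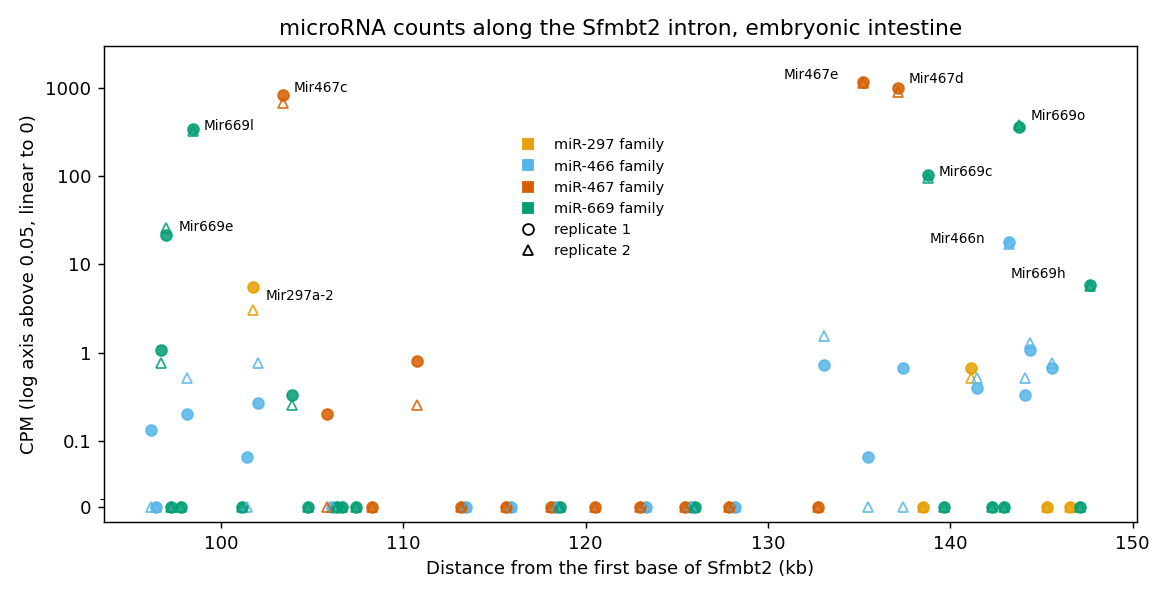
CPM of every member (log axis above 0.05, linear down to 0) against distance from the first base of Sfmbt2 in kb; colours mark families, filled circles replicate 1 and open triangles replicate 2. The 10 labelled genes stand at 103.4 kb and before, or at 135.2 kb and after, and between them the members lie at or near 0.

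The middle stretch holds the near-identical tandem copies of Mir467a, Mir466b and Mir669p, beside less alike members such as Mir669g. Mir669g shared no window, a short stretch of hairpin sequence defined below, with any other member in the same orientation. Only 34 of its 104 windows (32.7%) were unique, however, and the rest recur in other annotated hairpins. Whether some of these recur in members in the opposite orientation was not checked. The 10 Mir467a genes of the middle stretch start a median of 2462 bases apart (2413 to 4880). Together they had 3 counts in replicate 1 and 0 in replicate 2. Among the 59 hairpins, 15 fall into 5 groups of identical sequence. The largest group holds 6 Mir467a hairpins (Mir467a-2, Mir467a-4, Mir467a-5, Mir467a-7, Mir467a-8 and Mir467a-9) and the next 3 (Mir467a-3, Mir467a-6 and Mir467a-10). The others are Mir466b-4 with Mir466b-6, Mir466b-5 with Mir466b-7, and Mir669p-1 with Mir669p-2. Every member in these groups had 0 counts.

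Reads that align to several places stand in a row of their own in the deposited tables and belong to no gene. They numbered 6977350 in replicate 1 and 1864809 in replicate 2, 119 and 133 times the counts of the whole cluster. The tables do not say where those reads align, so their number from the cluster is unknown. A 0 for a member with copies therefore does not measure its RNA, and the cluster's sum is a lower limit on the reads it gave.

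Sharing was measured with windows of 20 bases, each called unique when no other annotated microRNA hairpin holds it in either orientation. Genome copies outside annotated hairpins were not searched, so a unique window may still recur. A median of 29.9% of a member's windows was unique. All windows were unique for 1 of 59 members, Mir466g, against 941 of the 1835 other rows with an annotated hairpin. No window was unique for 20 members, 33.9%, against 13.3% of those other rows.

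Members without a unique window had almost no counts. Of these 20, 19 were at 0, and the last, Mir467a-1, a gene singled out once its values were known, showed 3 counts in replicate 1 and none in replicate 2. Of the 20, 19 lie in the stretch between Mir467c and Mir467e and 1, Mir669a-2, after it. Among the 38 members with both shared and unique windows 10 reached the minimum in both libraries, 26.3%. Among the other rows of the tables the same shares were 1.64% without a unique window, 12.8% with both kinds and 28.3% with unique windows only.

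Members with more unique sequence tended to have more counts, with exceptions. Across the 59 members, Spearman's rho between the unique share and the counts was 0.66 in replicate 1 and 0.65 in replicate 2. The genes share libraries and sequence, so this is a description. Reads with several alignments are assigned to no gene, so few counts could fall on the 20 members without a unique window. Part of this rho can therefore come from the counting itself, and rho was not computed without those members. Of the 13 members with over 50% unique windows 8 reached the minimum in both libraries, and these 13 held 73.8% of the cluster's counts in replicate 1 and 74.5% in replicate 2. Among the exceptions, named after their values were seen, Mir669b had 87.2% unique windows and Mir669i 73.1%, and both were at 0. Mir466g, unique throughout, had 5 and 2 counts, whereas Mir467d, with 37.9%, had 15121 and 3529. The windows cover the whole hairpin, so a member's unique share need not be that of its mature strand.

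**Figure D3:**
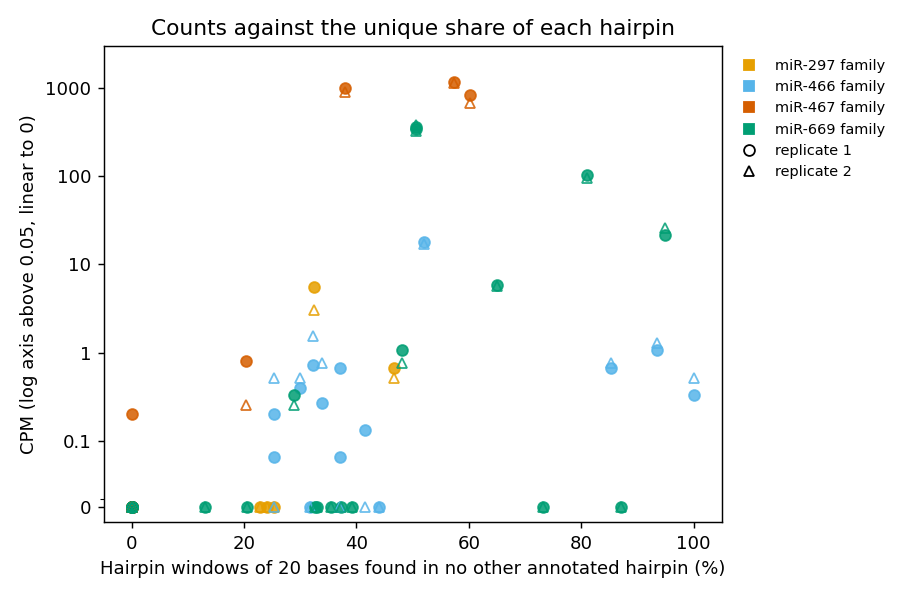
CPM of every member (log axis above 0.05, linear down to 0) against the percentage of its 20-base hairpin windows found in no other annotated hairpin; colours mark families, filled circles replicate 1 and open triangles replicate 2. The 20 members at 0% lie at or near 0 CPM, the 3 leading miR-467 genes lie between 37.9% and 60.3%, and members above 80% spread from 0 to 102 CPM.

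The counted genes were relatives of the uncounted ones. Mir467d shared 41 of its 66 windows with Mir467a-10, which had 0 counts. Mir467e shared 29 of 68 with Mir467c, and both were among the 3 leading genes. Mir669l shared 38 of 79 windows with Mir669d and Mir669o 33 of 77 with Mir669a-1, both at 0. These shared windows were counted in the same orientation only. On that count, Mir669e shared no window with any other member.

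**Figure D4:**
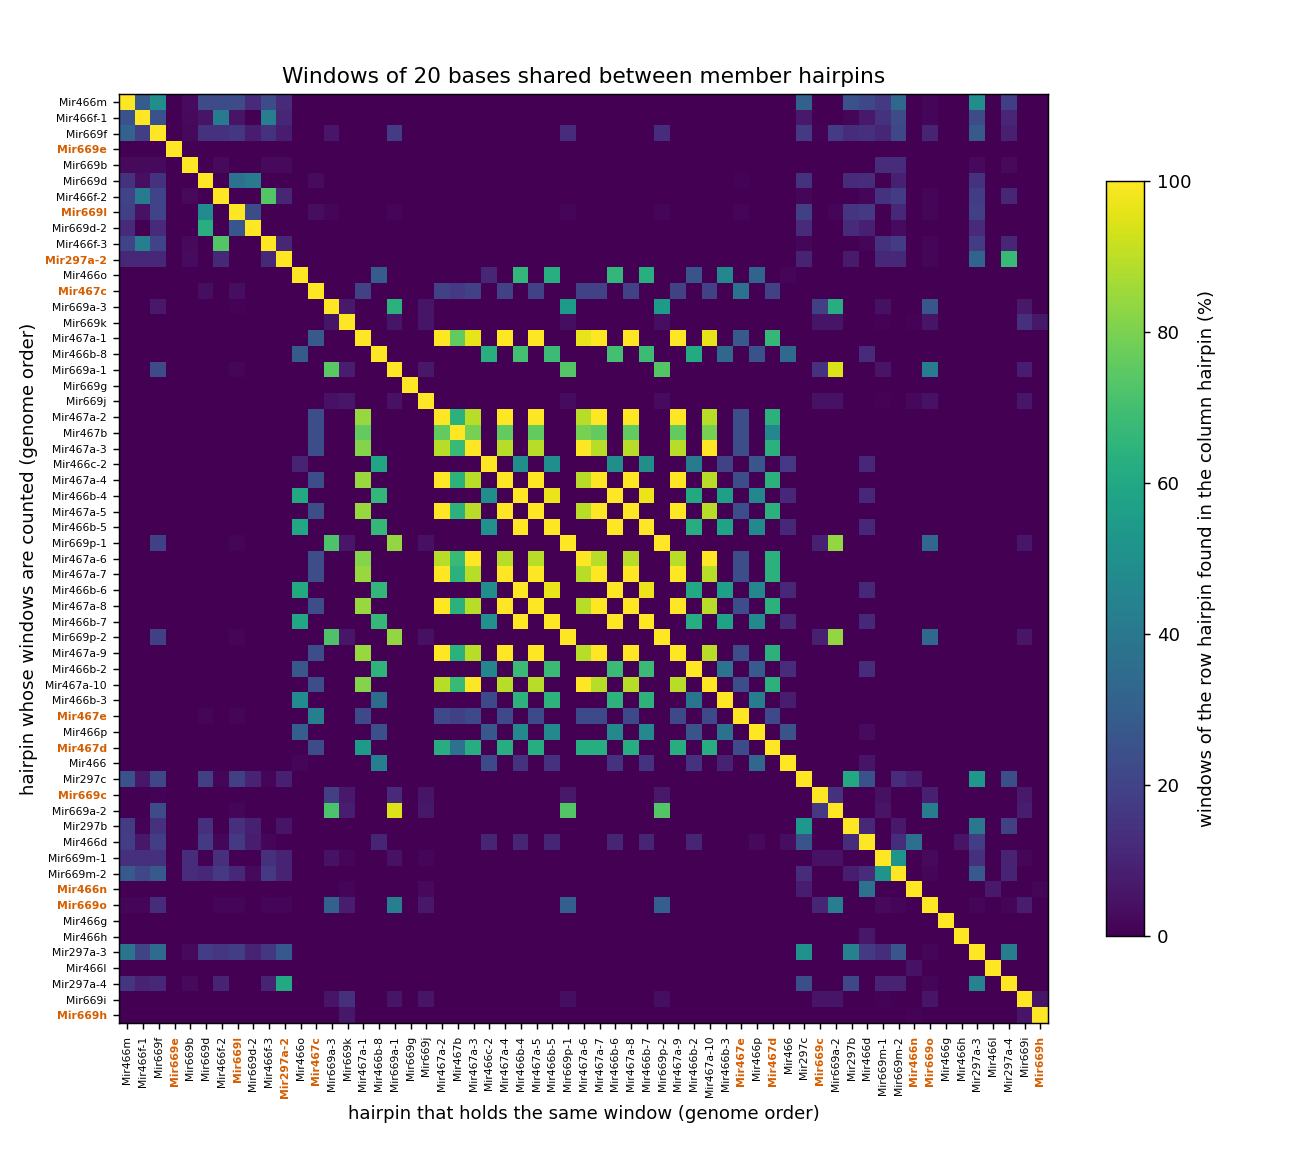
Percentage of each member hairpin's 20-base windows (rows) found in the same orientation in each other member hairpin (columns). Both axes are in genome order, and colours run from 0 (dark) to 100 (yellow). Bold orange names are the 10 members with at least 10 counts in both libraries. The block of yellow cells in the middle holds the Mir467a, Mir466b and Mir669p copies, and Mir669e has no cell off the diagonal.

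Base composition and length separated the counted members little from the rest. The 10 detected hairpins had a median GC content of 39.7% (34.7 to 42.9%), and the 33 hairpins at 0 a median of 36.7% (31.6 to 43.4%). Median lengths were 96.5 and 90 bases. The longest run of alternating T and G, or A and C, had a median of 8.5 bases in the detected hairpins (7 to 15) and 9 in those at 0 (7 to 12). All of these ranges overlap.

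The cluster's summed CPM was lower in replicate 2, by a log2 ratio of -0.11 (95% counting interval -0.14 to -0.09). With edgeR's TMM sizes this ratio was -0.18 and with DESeq2's size factors -0.17. Some lists of cell type markers also differed between the libraries. The summed log2 ratio was -0.20 for the smooth muscle pair (171529 and 149642 CPM), 0.29 for the 5 miR-200 family genes of epithelium (35028 and 42892 CPM), 0.34 for the 4 intestinal epithelial genes (8980 and 11362 CPM) and 0.66 for the erythroid pair Mir451a and Mir144 (255 and 402 CPM). By contrast it was 0.04 for Mir126a of endothelium (23478 and 24174 CPM) and 0.01 for 12 genes of pluripotent cells and trophoblast (309 and 311 CPM). Mir122 of liver had 0.36 (39.8 and 51.0 CPM) and 5 neuronal genes 0.52 (5.37 and 7.69 CPM). The neuronal ratio rests on 81 and 30 counts, nearly all of Mir9-3 (5.30 and 7.69 CPM). Its counting interval, -0.14 to 1.14, includes no difference. Of the 12 genes 2 were at 0 in both libraries and of the 5 neuronal genes 3, but none of the other lists. The part of these lists in the difference of the cluster was not tested. The median absolute log2 difference was 0.08 over the 10 members and 0.15 over all 363 genes with at least 10 counts in both libraries, but with TMM sizes it was 0.15 over both and with DESeq2's factors 0.14 and 0.15. By the exact binomial test of each gene's 2 counts, adjusted by Benjamini-Hochberg over those 363 genes, 2 of the 10 members passed 0.05, against 43.8% of all genes tested. Both were lower in replicate 2, as were 14% of all genes, while 29.8% were higher.

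Mir467c had the smallest adjusted p, with a log2 ratio of replicate 2 over replicate 1 of -0.31 (counting interval -0.37 to -0.25; adjusted p = 3.40e-24 by the exact test). Mir467d had -0.15 (-0.20 to -0.10; adjusted p = 1.14e-07 by the exact test). Mir467e had -0.03, with an adjusted p of 0.364 by the exact test. Mir669l had -0.07 (adjusted p = 0.220 by the exact test), and Mir669o had 0.05 (adjusted p = 0.359), which became -0.02 with edgeR's TMM sizes and -0.01 with DESeq2's size factors.

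Mir297a-2 had the widest gap, -0.86, with a counting interval of -1.87 to 0.02 that includes no difference. Of the other detected members, Mir669e had 0.27, Mir669c -0.09, Mir466n -0.08 and Mir669h -0.07, none past the exact test. With TMM sizes or DESeq2's size factors in place of the library totals, 4 of the 10 members passed, Mir467e and Mir669l in addition, both lower in replicate 2. Of all genes 40.8% passed with the first and 41% with the second, so the members' count lay near that share. The test compares these 2 libraries only, and collection day and replicate cannot be told apart.

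Other microRNA genes in the same interval were also nearly empty. The 48 rows there with other symbols, all predicted genes named Gm, had 27 counts in replicate 1 and 5 in replicate 2. Of these 42 were at 0 and none reached 10 counts in both libraries. No window was unique for 22 of the 48, and the median unique share was 11.1%.

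Other multi-gene clusters show the range at this age. The imprinted run from Mir379 to Mir410 on chromosome 12 had 29 of 33 genes at the minimum in both libraries and held 4.75 ± 0.143% of the counts (SD, n = 2). All windows were unique for 28 of its 33 hairpins, and Mir411, its highest gene by mean level, had 8838 and 8017 CPM. The cluster from miR-290 to miR-295, known from embryonic stem cells and trophoblast, had 3 of 7 genes at the minimum. It summed to 16.7 and 15.6 CPM, against 3874 and 3582 CPM for the Sfmbt2 cluster. Its hairpins had a median unique share of 98.4%. No test of these differences between clusters was run.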

How the data were processed

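The authors deposited 1 table of raw read counts for each library. Its columns have no names and were read from their values as total, own-strand and opposite-strand counts, since the first is the sum of the others in every gene row. Genome mm10 and the GENCODE M4 gene set were used, per the file headers in the text files beside the tables. The aligner, trimming and counter are not given in the sources used here. Rows that name no gene were left out; reads with several alignments made up 26.5% and 26.6% of the reads in replicates 1 and 2, which held 26361292 and 7003185 reads.

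Symbols, positions and hairpins came from GENCODE release M21, of the same assembly; 1894 of 1973 identifiers matched, and all 59 members matched with their version. Counts on the gene's strand were scaled to CPM by library totals. The exact binomial test (two-sided, scipy 1.17.1) ran over genes with at least 10 counts in both libraries, with Benjamini-Hochberg adjustment at 0.05. It was tried on simulated counts that varied by counting error only. That trial held no variation between replicates and cannot show how the test behaves with it. TMM sizes (edgeR 4.0.16) and median-of-ratios factors (DESeq2 1.42.0) were alternatives. A planned measure of mature arms found once in the genome was replaced by unique 20-base hairpin windows. Named were the 10 members at the minimum, the next 10 by summed counts, and all members at 0; other names were chosen after their values were seen. The members and lists were chosen with earlier results of these data known. Replicates are biological per the labels.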

Additional observations from a re-analysis of the deposited data

How the results depend on the processing

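The share of the cluster, 0.373%, was 0.257% without Mir467e and 0.443% with Mir143 left out of the total. Without the members that share a window it was 4.22e-05%, and the log2 difference between the libraries 0.63, since Mir466g alone was left with 5 and 2 counts. Taking either library alone gave 0.358 to 0.387%. The number of members detected, 10, was 12 at a minimum of 5 counts, 9 at 20 and 26 with at least 1 count in either library; single libraries gave 10 to 17. Members at 0 numbered 33 to 38 in single libraries. The members that passed the exact test rose from 2 to 4 with edgeR TMM sizes and to 4 with DESeq2 size factors, beside 40.8% and 41% of all genes; there Mir669l had adjusted p of 0.00701 and 0.0138 and Mir467e 0.000229 and 0.00115. With both strands counted, other minimums, or replicate 1 thinned to the depth of replicate 2, the number was 2 each time, while between 19.8% and 50% of all genes passed. Window lengths of 18 and 24 bases, chosen after seeing the data, left 20 members without a unique window, as 20 bases did. No paired analysis was possible because the design holds 1 group. Levels under about 1 CPM rest on fewer than 20 counts a library.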
